A study of Rattus norvegicus with 71 samples.

Results

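The genes of the presynaptic vesicle and its release machinery were described as a set of 39 named genes, listed by gene symbol and covering synapsins, vesicle membrane proteins, calcium sensors, SNARE proteins, complexins, Rab3 proteins, active zone scaffolds and endocytic proteins. Of these, 38 were among the 19771 genes of the count table and all 38 were among the 15343 genes that passed the filter on low counts. Sv2b was not analysed here. RNA was sequenced from primary rat cortical cultures on microelectrode arrays, a mixed culture of neurons and glia in which the network forms over the days after plating. Exposure began 2 h after plating and was renewed on days 5, 7 and 9 of culture, before RNA collection on day 12. The exposed groups were cytosine arabinoside at 0.1, 0.3 and 1 µM, 5-fluorouracil at 0.1, 0.3 and 1 µM, haloperidol at 0.3, 1 and 3 µM, domoic acid at 0.1, 0.3 and 1 µM, deltamethrin at 0.3, 1, 3 and 10 µM, and cypermethrin at 1, 3 and 10 µM. Each compound had 0 µM libraries of its own. Groups held 3 libraries, except that deltamethrin 0.3 µM held 1 library and the 0 µM groups of cypermethrin and of 5-fluorouracil held 2 libraries each.

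The 71 libraries held 5.2 to 43.1 M counts, with a median of 10.2 M, and came from sequencing projects GRC321 (24 libraries) and GRC327 (47 libraries). Replicate 1 of each group was the GRC321 library, except in the 5-fluorouracil 0 µM group, which held GRC327 libraries alone. Each sample pooled 2 to 3 wells and the work was run on 2 separate cultures, but the labels do not tie libraries to cultures, so that p-values reflect only how far these samples spread, which may be technical. Levels are CPM, that is counts scaled to a common library total after correction by the trimmed mean of M values (TMM). Fold changes are log2 values from edgeR's quasi-likelihood fit of all libraries with a project term for each compound, and a gene was called when its Benjamini-Hochberg adjusted p over all tested genes was under 0.05. Levels are compared between libraries and not between genes, since no transcript lengths were used.

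A presynaptic terminal stores transmitter in vesicles that carry synaptophysin, SV2 proteins and a Rab3 protein, and synapsins tether these vesicles in a reserve. At the active zone, Rims, Bassoon and Piccolo hold vesicles near calcium channels and the Munc13 proteins, encoded by the Unc13 genes, prepare them for release. A SNARE complex of synaptobrevin (Vamp1 or Vamp2), syntaxin-1 and SNAP-25 then drives fusion, complexins clamp and promote that step, and a synaptotagmin triggers it when calcium enters. Several of these proteins exist as isoforms: Vamp1, Cplx1 and Syt2 are the forms associated with fast, synchronous release, known in rodents from brainstem, cerebellum and fast-spiking interneurons, while Vamp2, Cplx2 and Syt1 are their widespread forebrain counterparts. After fusion, dynamin-1 (Dnm1) and amphiphysin (Amph) take part in retrieving the membrane.

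The promoter sequences of 3 fast-release isoform genes and of Cplx2 are shown because these genes are among those in the isoform comparisons that follow. Those of Vamp2 and Syt1 were searched in the same way and are not printed. They span 250 bases before to 50 after the annotated start, from RefSeq on the rat build GRCr8, which matched 31 of the 39 genes by symbol. Syn3, Syt5, Syt7, Syt12, Doc2a, Doc2b, Snap25 and Rims2 had no entry. Capitals mark the cyclic-AMP response element core TGACG (the full element is TGACGTCA) and the GC box GGGCGG, searched on both strands, so that CGTCA and CCGCCC are also in capitals.
Vamp1 (chr4:159698644-159698943, plus strand): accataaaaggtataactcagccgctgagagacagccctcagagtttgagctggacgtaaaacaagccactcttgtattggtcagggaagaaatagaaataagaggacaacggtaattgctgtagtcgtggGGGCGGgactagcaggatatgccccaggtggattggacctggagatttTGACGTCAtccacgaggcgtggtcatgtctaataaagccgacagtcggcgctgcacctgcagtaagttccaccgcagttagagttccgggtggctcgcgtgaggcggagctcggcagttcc
Cplx1 (chr14:1328823-1329122, plus strand): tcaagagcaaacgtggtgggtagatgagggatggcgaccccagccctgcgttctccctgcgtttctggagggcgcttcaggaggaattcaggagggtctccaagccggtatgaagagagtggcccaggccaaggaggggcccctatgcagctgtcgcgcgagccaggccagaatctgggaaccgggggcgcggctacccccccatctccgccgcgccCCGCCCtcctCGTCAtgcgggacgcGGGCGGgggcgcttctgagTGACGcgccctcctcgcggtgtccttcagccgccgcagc
Syt2 (chr13:48736872-48737171, plus strand): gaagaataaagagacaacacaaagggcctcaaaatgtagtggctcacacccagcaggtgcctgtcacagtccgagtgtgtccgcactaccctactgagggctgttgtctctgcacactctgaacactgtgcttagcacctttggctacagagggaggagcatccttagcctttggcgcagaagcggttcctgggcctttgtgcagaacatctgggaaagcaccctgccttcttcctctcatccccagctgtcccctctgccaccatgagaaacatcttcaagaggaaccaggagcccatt
Cplx2 (chr17:10236704-10237003, minus strand): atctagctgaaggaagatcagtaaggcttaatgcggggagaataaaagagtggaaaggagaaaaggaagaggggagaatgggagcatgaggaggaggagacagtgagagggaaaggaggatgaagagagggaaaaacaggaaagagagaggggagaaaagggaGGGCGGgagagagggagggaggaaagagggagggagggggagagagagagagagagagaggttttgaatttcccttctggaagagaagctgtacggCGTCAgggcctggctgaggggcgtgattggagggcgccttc
The Vamp1 window held 1 full element and 1 GC box, and the 2 core matches counted in it are the 2 strands of that element. The Cplx1 window held 2 separate cores and 2 GC boxes, and the Cplx2 window held 1 core and 1 GC box. Of the windows not printed, that of Vamp2 held 1 core and 3 GC boxes, and that of Syt1 held no core and 3 GC boxes. No core or GC box was found in the Syt2 window. An ATG followed by no in-frame stop codon stood near the end of that window, after the annotated start. Whether transcription starts there in these cultures was not tested, so the Syt2 window may not hold the promoter in use. The core stood in 10 of the 31 matched windows (32.3%), against 21.2% of all 33469 RefSeq promoter windows of this length. The full element stood in 2 of 31, those of Syn1 and Vamp1 (6.45%), against 1.83% of all windows. The GC box stood in 22 of 31 (71%), against 33.1% of all windows. The longer EGR site GCGNGGGCG, which can overlap a GC box as it does in Cplx1, stood in 8 of 31 (25.8%), against 4.98%. The shares over all windows were not limited to the genes tested here, and they count windows, while those of the 31 count genes. The 2 shares are therefore of unlike sets. These matches describe letters in the windows and were not tied to any factor.

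The labelled tissue was checked on marker genes, and neuronal markers led by Stmn2, Map2 and Mapt and the astrocyte marker Glul were read in the 0 µM libraries. Among the 16 libraries at 0 µM, 31 of the 38 genes overlapped in level between the 2 projects and 7 did not (18.4%, against 22.4% of all tested genes). Syt1, the main calcium sensor of synchronous release in forebrain, was at 3167 to 3527 CPM in 5 GRC321 libraries and at 2030 to 2769 CPM in 11 GRC327 libraries. Vamp2, the main vesicular SNARE of the forebrain, was at 1638 to 1942 CPM in GRC321 and at 995 to 1273 CPM in GRC327. Syn3, Syt7, Syt11, Cplx2 and Unc13b stood lower in GRC321 without overlap. The project is therefore a term in the edgeR fit. For 5-fluorouracil that term rests on the exposed libraries, since its 0 µM group has no GRC321 library.

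Cytosine arabinoside, a nucleoside of cytosine with arabinose in place of ribose that stops DNA synthesis in dividing cells, gave the most calls among these genes of the 6 compounds. At 0.1 µM 8 of 38 genes were called, all higher (21.1%, against 9.13% of all tested genes called, 2.38% higher and 6.75% lower). At 0.3 µM 15 were called, all higher (39.5%, against 17.6% called and 5.96% called higher). At 1 µM 24 were called, 19 higher and 5 lower (63.2%, against 36.0% called, 16.6% higher and 19.4% lower). The median log2 fold change over the 38 genes was 0.28, 0.34 and 0.37 at 0.1, 0.3 and 1 µM, beside 0.01, 0.02 and 0.03 over all tested genes. The 3 comparisons share their 0 µM libraries. The count at 0.1 µM was 2 without 0.1 µM replicate 1 and 5, 3 and 4 without 0 µM replicates 1, 2 and 3, and the count at 0.3 µM was 8 and 5 without 0.3 µM replicates 2 and 3 and 7 without 0 µM replicate 3. Scaled to pan-neuronal counts, which moved the median of all tested genes by −0.19, −0.16 and 0.17, the calls were 1, 4 (2 higher, 2 lower) and 27 (22 higher, 5 lower). Cplx1 at 0.1 µM and Cplx1 and Sv2a at 0.3 µM stayed called under every alternative tried, while each other gene called at those concentrations lost its call in at least 1 of them. At 1 µM the calls of Amph, Cplx2, Pclo, Rab3c, Syn3, Syp, Syt4, Syt7, Syt11 and Unc13a were lost in the fit with no project term. In bulk libraries fewer cells of a type and less RNA per cell cannot be told apart, and this holds for every difference given here.

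**Figure D1:**
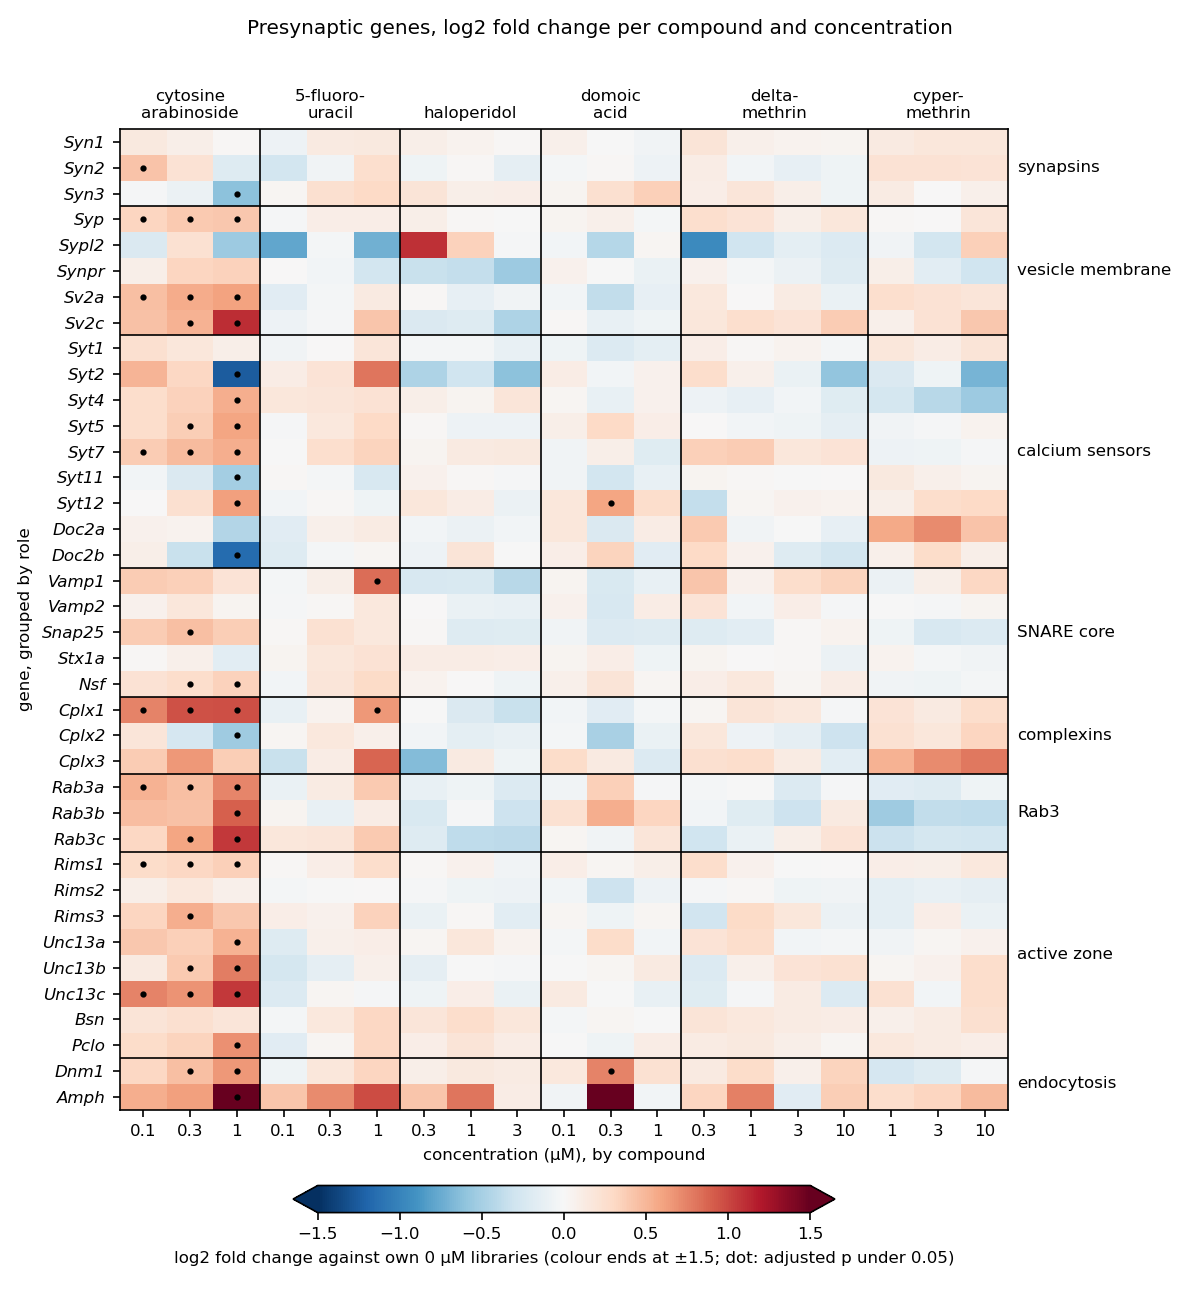
Log2 fold change of each of the 38 genes (rows, grouped by role) at each concentration in µM (columns, grouped by compound) against that compound's own 0 µM libraries, with a dot where the adjusted p was under 0.05. Most dots stand in the cytosine arabinoside columns, with 8, 15 and 24 called genes at 0.1, 0.3 and 1 µM, against 2 at 5-fluorouracil 1 µM and 2 at domoic acid 0.3 µM.

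Cplx1, the complexin that supports fast synchronous release, was higher at each concentration. Its level was 281, 306 and 305 CPM at 0 µM, 472, 522 and 502 CPM at 0.1 µM, 609, 542 and 571 CPM at 0.3 µM, and 483, 649.5 and 615 CPM at 1 µM of cytosine arabinoside. Every exposed library stood above every 0 µM library. The log2 fold change was 0.75 ± 0.10 at 0.1 µM (SE; edgeR adjusted p = 2.9e-07), 0.95 ± 0.10 at 0.3 µM (edgeR adjusted p = 1.8e-10) and 0.97 ± 0.10 at 1 µM (edgeR adjusted p = 4.2e-11). Its counterpart Cplx2 was called lower at 1 µM, with 420, 517 and 1008 CPM at 1 µM, against 749, 868 and 1112 CPM at 0 µM. Replicate 3 at 1 µM lay within the 0 µM range and the other exposed libraries below it. The log2 fold change of Cplx2 was −0.53 ± 0.18 (SE; edgeR adjusted p = 0.015), and the call was lost in GRC327 alone, without the project term, and without any one of 4 libraries (0 µM replicates 1 and 3, 1 µM replicates 1 and 2). Cplx3, a complexin best known from retinal ribbon synapses, had 0.37 ± 0.44 (SE; edgeR adjusted p = 0.54).

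**Figure D2:**
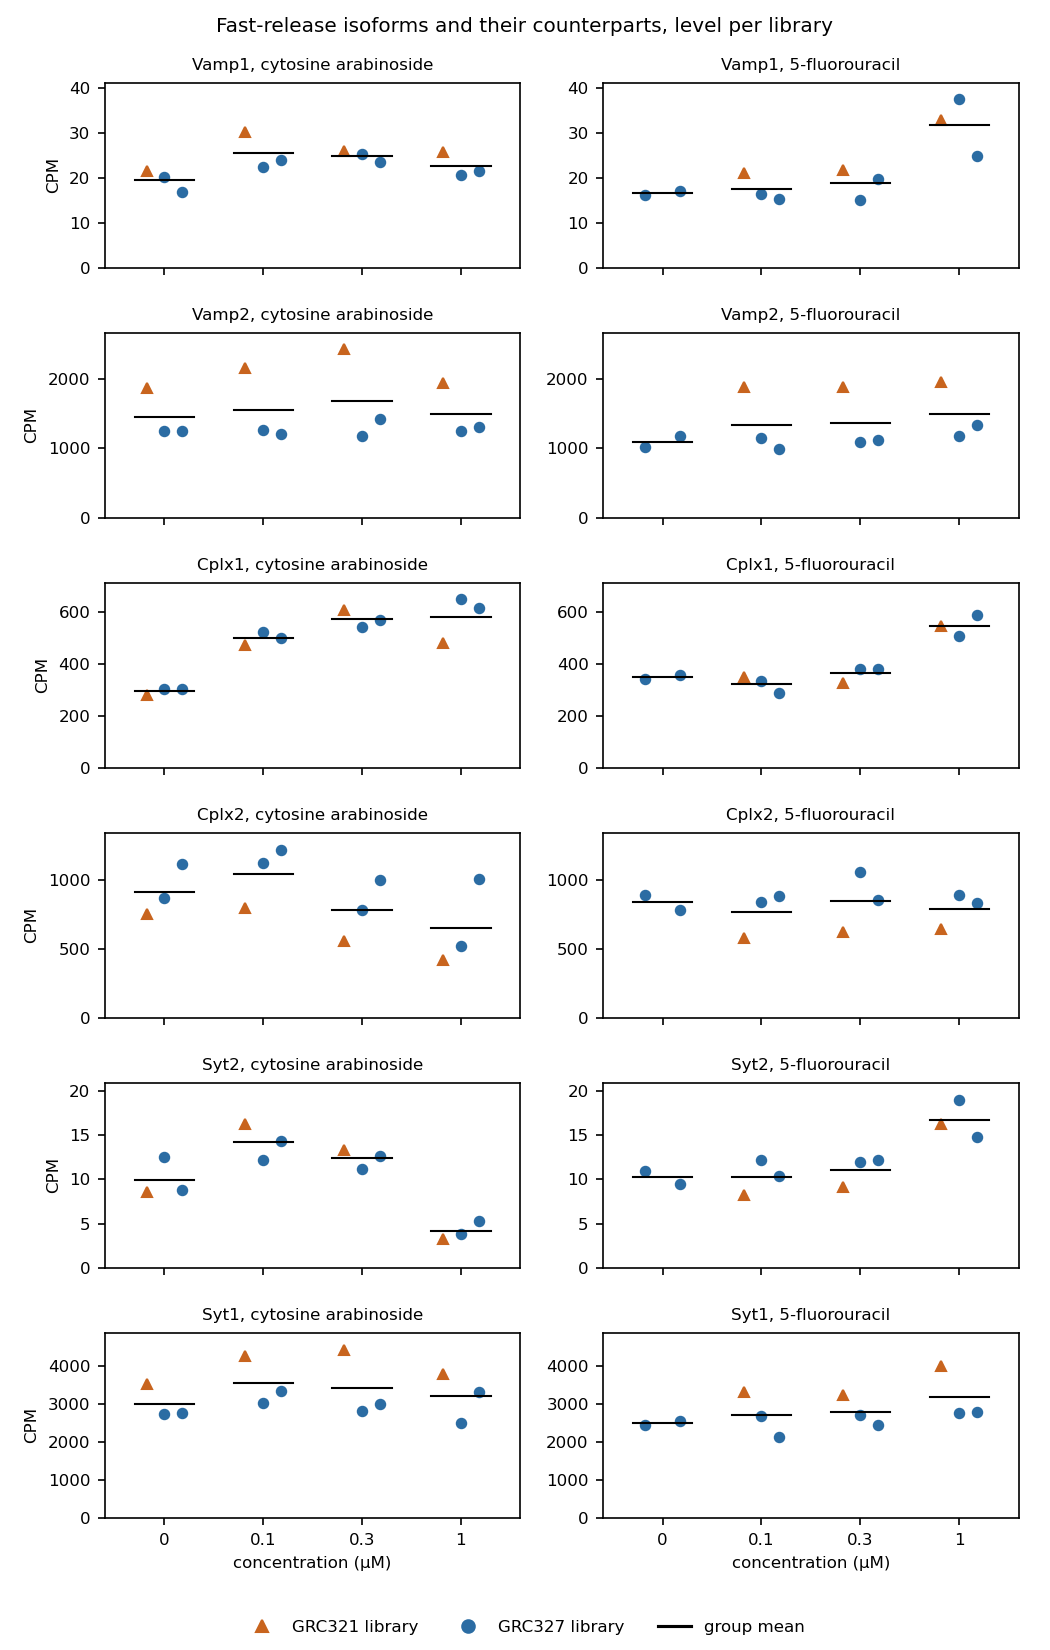
Level in CPM (linear axes from 0) of the fast-release isoforms Vamp1, Cplx1 and Syt2 and their counterparts Vamp2, Cplx2 and Syt1 in each library of cytosine arabinoside (left) and 5-fluorouracil (right), by concentration in µM; points are libraries, symbols mark the sequencing project, and lines mark group means. Cplx1 stood at 483 to 649.5 CPM at 1 µM cytosine arabinoside, above 281 to 306 CPM at 0 µM, while Syt2 stood at 3.27 to 5.29 CPM, below 8.61 to 12.5 CPM.

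Among the synaptotagmin and Doc2 genes, not all of which are calcium sensors, 4 of 9 were higher and 3 lower at 1 µM. Of all tested genes 16.6% were higher and 19.4% lower. Syt2, the fast-release counterpart of Syt1, was at 3.27, 3.89 and 5.29 CPM at 1 µM, against 8.61, 12.5 and 8.79 CPM at 0 µM, and the groups did not overlap. Its log2 fold change was −1.25 ± 0.26 (SE; edgeR adjusted p = 0.00013). At the lower concentrations Syt2 was not called, with 16.3, 12.2 and 14.3 CPM at 0.1 µM and 13.4, 11.2 and 12.6 CPM at 0.3 µM. Syt1 had a log2 fold change of 0.09 ± 0.12 at 1 µM (SE; edgeR adjusted p = 0.61), with 3803, 2501 and 3308 CPM at 1 µM, against 3527, 2733 and 2769 CPM at 0 µM. The 2 sets of Syt1 values overlapped. Doc2b, a high-affinity calcium sensor linked to spontaneous and asynchronous release, was at 3.40, 8.99 and 11.1 CPM at 1 µM, against 17.2, 19.6 and 14.5 CPM at 0 µM. All 3 exposed libraries were below all 0 µM libraries, with a log2 fold change of −1.15 ± 0.23 (SE; edgeR adjusted p = 7.2e-05). Syt11, a synaptotagmin that does not bind calcium, fell by 0.51 on the log2 scale. Doc2a, a relative of Doc2b, had −0.44 ± 0.21 (SE; edgeR adjusted p = 0.10). The 4 genes that rose were Syt7, a slow sensor of asynchronous release (0.55 ± 0.13), Syt4 (0.55 ± 0.16), Syt5 (0.59 ± 0.13) and Syt12 (0.61 ± 0.16), each as log2 fold change and SE. Of these, Syt7 was also called at 0.1 µM (0.38, edgeR adjusted p = 0.049) and at 0.3 µM (0.47, edgeR adjusted p = 0.0057). The call of Syt4 at 1 µM was lost in GRC327 alone, in the fit with no project term, and when replicate 1 of either group was left out, and that of Syt12 when replicate 3 at 0 µM was left out.

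Among the SNARE proteins and their recycling factor, 1 of 5 genes was called at 1 µM, beside 36.0% of all tested genes. Nsf, the ATPase that takes spent SNARE complexes apart, was at 481 ± 39.7 CPM at 1 µM and at 380.4 ± 38.99 CPM at 0 µM (SD, n = 3 each), which gave 0.34 ± 0.10 on the log2 scale (SE; edgeR adjusted p = 0.0037) that was not called in GRC327 alone or without 0 µM replicate 3. Vamp1 was at 25.8, 20.6 and 21.6 CPM at 1 µM, against 21.5, 20.2 and 16.9 CPM at 0 µM, and the groups overlapped. Its log2 fold change was 0.21 ± 0.14 (SE; edgeR adjusted p = 0.24), with a 95% interval of −0.07 to 0.49. Vamp2 was at 1950, 1249 and 1310 CPM at 1 µM, against 1877, 1246 and 1248 CPM at 0 µM, with a log2 fold change of 0.04 and an interval of −0.19 to 0.28. At 0.3 µM Snap25, the plasma membrane SNARE that contributes a pair of helices to the complex, had 0.45 (edgeR adjusted p = 0.045), and at 1 µM 0.37 (edgeR adjusted p = 0.065). Stx1a, the syntaxin-1 partner, had −0.16 at 1 µM (edgeR adjusted p = 0.22).

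The vesicle membrane proteins and the Rab3 GTPases, which travel on the vesicle, were called higher for 3 of 5 tested vesicle membrane genes and 3 of 3 Rab3 genes at 1 µM, beside 16.6% of all tested genes. Sv2c, the SV2 form best known from the basal ganglia, was at 60.7, 82.8 and 70.8 CPM at 1 µM, against 31.1, 38.4 and 29.6 CPM at 0 µM. The groups did not overlap, and the log2 fold change was 1.11 ± 0.15 (SE; edgeR adjusted p = 4.4e-08). Sv2a, the SV2 form found at most synapses and the target of levetiracetam, had 0.45, 0.56 and 0.61 at 0.1, 0.3 and 1 µM (edgeR adjusted p = 0.0044, 1.2e-04 and 1.5e-05). Syp, the tetraspan vesicle protein synaptophysin, had 0.32, 0.40 and 0.41 (edgeR adjusted p = 0.026, 0.0021 and 0.00071). Rab3c was at 65.4, 60.9 and 75.4 CPM at 1 µM, against 18.7, 37.5 and 46.0 CPM at 0 µM, without overlap, a log2 fold change of 1.05 ± 0.20 (SE; edgeR adjusted p = 3.4e-05). Rab3b had 0.90 ± 0.17 (SE; edgeR adjusted p = 3.4e-05), with 36.3, 32.1 and 29.3 CPM at 1 µM, against 20.8, 17.8 and 14.2 CPM at 0 µM. Rab3a, the main Rab3 of the forebrain, had 0.53, 0.45 and 0.74 at 0.1, 0.3 and 1 µM (edgeR adjusted p = 0.011, 0.021 and 4.0e-05). Synpr and Sypl2, relatives of synaptophysin, were not called at 1 µM (0.34 and −0.54). Sypl2 had only 2 to 34 counts per library.

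At the active zone 5 of 8 genes were higher at 1 µM and none lower, beside 16.6% of all tested genes higher and 19.4% lower. Unc13c, which encodes Munc13-3, best known from the cerebellum, was at 21.5, 21.5 and 17.6 CPM at 1 µM, against 13.2, 7.83 and 8.74 CPM at 0 µM, a log2 fold change of 1.06 ± 0.20 (SE; edgeR adjusted p = 2.3e-05). All exposed libraries were above all 0 µM libraries. Unc13b (Munc13-2) was at 72.4, 93.5 and 98.0 CPM at 1 µM, against 42.8, 53.2 and 59.3 CPM at 0 µM, again without overlap, with 0.76 ± 0.14 (SE; edgeR adjusted p = 1.7e-05). Unc13a, the principal Munc13 of glutamatergic synapses, had 0.52 ± 0.14, and the scaffolds Rims1 and Pclo had 0.36 ± 0.09 and 0.68 ± 0.17 (SE). Rims1 was called at each concentration, with 0.28, 0.32 and 0.36 at 0.1, 0.3 and 1 µM (edgeR adjusted p = 0.048, 0.012 and 0.0016). Rims3 was called at 0.3 µM (0.55, edgeR adjusted p = 0.017) and had 0.40 at 1 µM (edgeR adjusted p = 0.056). Rims2 (0.08) and Bsn (0.18), which encodes the scaffold Bassoon, were not called.

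Of the 3 synapsins, only Syn3 was called at 1 µM, lower, beside 19.4% of all tested genes called lower. It was at 17.5, 20.8 and 37.3 CPM at 1 µM, against 29.3, 41.9 and 43.8 CPM at 0 µM, so that replicate 3 at 1 µM lay within the 0 µM range. The log2 fold change was −0.62 ± 0.14 (SE; edgeR adjusted p = 0.00057). Syn2 was called at 0.1 µM (0.42, edgeR adjusted p = 0.0056) and had −0.20 at 1 µM (edgeR adjusted p = 0.15), and Syn1 had 0.02 at 1 µM. The models of all 3 synapsin genes overlap Timp genes. No source used here gives the strandedness, so whether reads of the overlapping genes were kept apart is not known.

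The 2 endocytic genes were each called higher at 1 µM, beside 16.6% of all tested genes. Dnm1 was at 316 ± 62.0 CPM at 1 µM and at 201 ± 24.1 CPM at 0 µM (SD, n = 3 each), which gave 0.65 ± 0.16 on the log2 scale (SE; edgeR adjusted p = 0.0014). Amph had 6.79, 11.3 and 5.29 CPM at 1 µM, against 1.04, 5.24 and 2.33 CPM at 0 µM. The groups did not overlap but lay close, since the lowest exposed library was just above the highest 0 µM library. Its log2 fold change was 1.57 ± 0.43 (SE; edgeR adjusted p = 0.003), and the call was lost in GRC327 alone and in the fit with no project term. Amph had only 5 to 389 counts per library, so its fold change is imprecise.

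**Figure D3:**
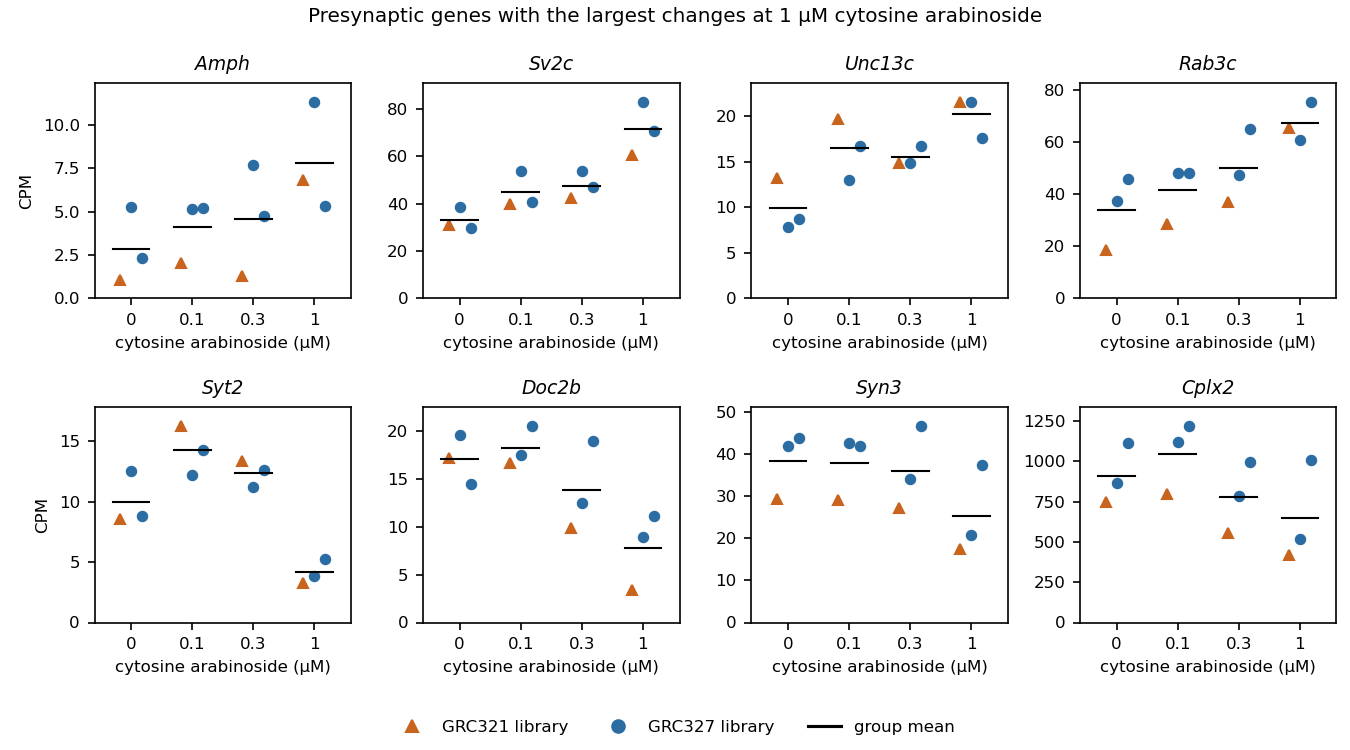
Level in CPM (linear axes from 0) of the 4 called genes with the largest changes in each direction at cytosine arabinoside 1 µM, per library, over 0, 0.1, 0.3 and 1 µM; symbols mark the sequencing project and lines mark group means. Amph, Sv2c, Unc13c and Rab3c stood higher and Syt2, Doc2b, Syn3 and Cplx2 stood lower at 1 µM.

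Marker genes of some other cell types moved in the same libraries. Of all tested genes 16.6% were called higher and 19.4% lower at 1 µM. At 1 µM, 14 of 15 oligodendrocyte lineage markers were lower, with summed levels of 80.5 to 109 CPM in exposed libraries and 1447 to 1793 CPM at 0 µM. Of 12 astrocyte markers 11 were lower and 1 higher (282 to 345 CPM at 1 µM, 3069 to 4672 CPM at 0 µM), and 9 of 12 GABAergic markers were higher (3196 to 4697 CPM at 1 µM, 695 to 903 CPM at 0 µM). At 0.1 and 0.3 µM the sums were 160.5 to 183 and 115 to 132 CPM for oligodendrocyte markers, 2101 to 2601 and 892 to 1350.0 CPM for astrocyte markers, and 1345 to 1439 and 1646 to 2098 CPM for GABAergic markers. None of these ranges overlapped that at 0 µM. Of 18 pan-neuronal markers 3 were higher and 2 lower, with sums of 13490 to 18070 CPM at 1 µM and 15890 to 19050 CPM at 0 µM. The glutamatergic marker sum overlapped, with 1427 to 1754 CPM at 1 µM and 1579 to 1952 CPM at 0 µM. So did the microglial sum, with 13.8 to 23.8 CPM at 1 µM and 15.5 to 28.8 CPM at 0 µM. The summed level of the 38 presynaptic genes divided by the pan-neuronal sum was 0.675 to 0.767 at 0 µM, 0.717 to 0.725 at 0.1 µM, 0.673 to 0.753 at 0.3 µM and 0.836 to 0.942 at 1 µM. It overlapped the 0 µM range at the 2 lower concentrations and not at 1 µM. The part of these cell type markers in the presynaptic differences was not tested. Replicate 1 at 1 µM had 9.12% of its counts in mitochondrial genes, against 1.91% to 6.63% in all other libraries.

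5-fluorouracil, a fluorinated uracil base that also blocks DNA synthesis and enters RNA, gave calls at 1 µM alone. At 0.1 µM 0 of 38 were called by edgeR (0.00652% of all tested genes) and 0 by DESeq2, with 1 gene at an unadjusted p under 0.05. Here and below, counts at an unadjusted p under 0.05 stand without the share of all tested genes at that threshold. They were not compared with that share and are not read as results about these genes. At 0.3 µM 0 were called by either tool (0.0456% of all tested genes by edgeR), with 0 at an unadjusted p under 0.05. At 1 µM 2 were called, both higher (5.26%, against 4.03% called and 0.691% called higher), 11 had an unadjusted p under 0.05, and the median log2 fold change over the 38 genes was 0.22, beside 0.01 over all tested genes. Scaled to pan-neuronal counts these medians were −0.02 and −0.23, and the calls were 2 higher and 1 lower. The summed level of the 38 genes divided by the pan-neuronal sum was 0.599 to 0.732 at 1 µM and 0.733 to 0.809 at 0 µM, lower at 1 µM with almost no gap. At 0.1 and 0.3 µM it was 0.623 to 0.751 and 0.645 to 0.778. This ratio has no project term and the 0 µM group has no GRC321 library, so project and exposure cannot be told apart in it. The 2 called genes were Vamp1 and Cplx1.

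Vamp1 was at 32.8, 37.4 and 24.9 CPM at 1 µM of 5-fluorouracil, against 16.3 and 17.1 CPM at 0 µM. Every exposed library was above both 0 µM libraries. The log2 fold change was 0.84 ± 0.16 (SE; edgeR adjusted p = 0.00036). At 0.1 and 0.3 µM Vamp1 stood at 15.2 to 21.1 and 15.1 to 21.7 CPM. Cplx1 was at 546, 510.2 and 589 CPM at 1 µM, against 344 and 359.7 CPM at 0 µM, without overlap. Its log2 fold change was 0.65 ± 0.12 (SE; edgeR adjusted p = 0.00019). Syt2 was at 16.3, 19.03 and 14.8 CPM at 1 µM, against 10.9 and 9.52 CPM at 0 µM; the groups did not overlap, and the log2 fold change was 0.81 ± 0.29 (SE; edgeR adjusted p = 0.11). Their counterparts Vamp2 (0.16 ± 0.14), Cplx2 (0.08 ± 0.20) and Syt1 (0.18 ± 0.14, log2 fold change and SE) were not called. Of the others, Amph had 0.98 (edgeR adjusted p = 0.31), Sv2c 0.42 (0.21), Rab3a 0.39 (0.22) and Nsf 0.29 (0.15), with the adjusted p in parentheses. The oligodendrocyte marker sum was 183 to 216 CPM at 1 µM of 5-fluorouracil and 1656 to 1700 CPM at 0 µM, the astrocyte sum was 2003 to 2872 CPM at 1 µM and 3552 to 3869 CPM at 0 µM, and the GABAergic sum was 1156 to 1509 CPM at 1 µM and 845 to 867 CPM at 0 µM. Their part in the presynaptic values was not tested.

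The 2 antimetabolites were compared at each shared concentration by the difference between their log2 fold changes. At 0.1 µM 3 of 38 genes differed, all with a larger change under cytosine arabinoside (3.84% of all tested genes differed), and at 0.3 µM 2 differed (5.26% of the 38, against 5.89% of all tested genes). At 1 µM 8 of the 38 differed, 4 in each direction (12.9% of all tested genes differed). At 0.1 µM they were Cplx1 (difference 0.86, 95% interval 0.54 to 1.17, edgeR adjusted p = 0.00018), Syn2 (0.70) and Sv2a (0.62), and at 0.3 µM Cplx1 (0.90) and Sv2a (0.59). At 1 µM Syt2 differed most, with a log2 fold change of −1.25 under cytosine arabinoside and of 0.81 under 5-fluorouracil, a difference of −2.05 ± 0.39 (SE; interval −2.84 to −1.27; edgeR adjusted p = 9.1e-05). Vamp1 had a smaller change under cytosine arabinoside (0.21) than under 5-fluorouracil (0.84), a difference of −0.63 ± 0.21 (SE; edgeR adjusted p = 0.038). That of Vamp1 was lost when scaled to pan-neuronal counts, without the filter, without the project term and in GRC327 alone. The calls of Doc2b, Rab3b, Sv2c and Unc13b at 1 µM were also lost in GRC327 alone. Those of Doc2b at 1 µM and of Sv2a at 0.1 µM were lost when scaled to pan-neuronal counts. The count at 0.3 µM was 1 without replicate 1 of cytosine arabinoside 0.3 µM, replicate 2 of its 0 µM group, replicate 3 of 5-fluorouracil 0.3 µM or replicate 2 of its 0 µM group. The count at 1 µM was 5 without replicate 2 of cytosine arabinoside 1 µM or replicate 3 of 5-fluorouracil 1 µM, 13 without replicate 3 of cytosine arabinoside 1 µM, 4 without either 0 µM library of 5-fluorouracil, and 18 (16 higher, 2 lower) when scaled to pan-neuronal counts. Doc2b (−1.18) and Syn3 (−0.91) were lower under cytosine arabinoside, and Unc13c (1.08), Rab3b (0.78), Sv2c (0.69) and Unc13b (0.69) were higher. In the fit with no project term the calls that stayed were Cplx1 at 0.1 and 0.3 µM and Syt2 at 1 µM. Adjusted for each gene over the 6 difference comparisons made in all, the p of each gene named here as different stayed under 0.05. The difference of Cplx1 at 1 µM was not called (0.32, interval 0.01 to 0.63), nor were Cplx2 (−0.60, −1.15 to −0.06), Syt1 (−0.09, −0.46 to 0.28) and Vamp2 (−0.12, −0.48 to 0.24).

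**Figure D4:**
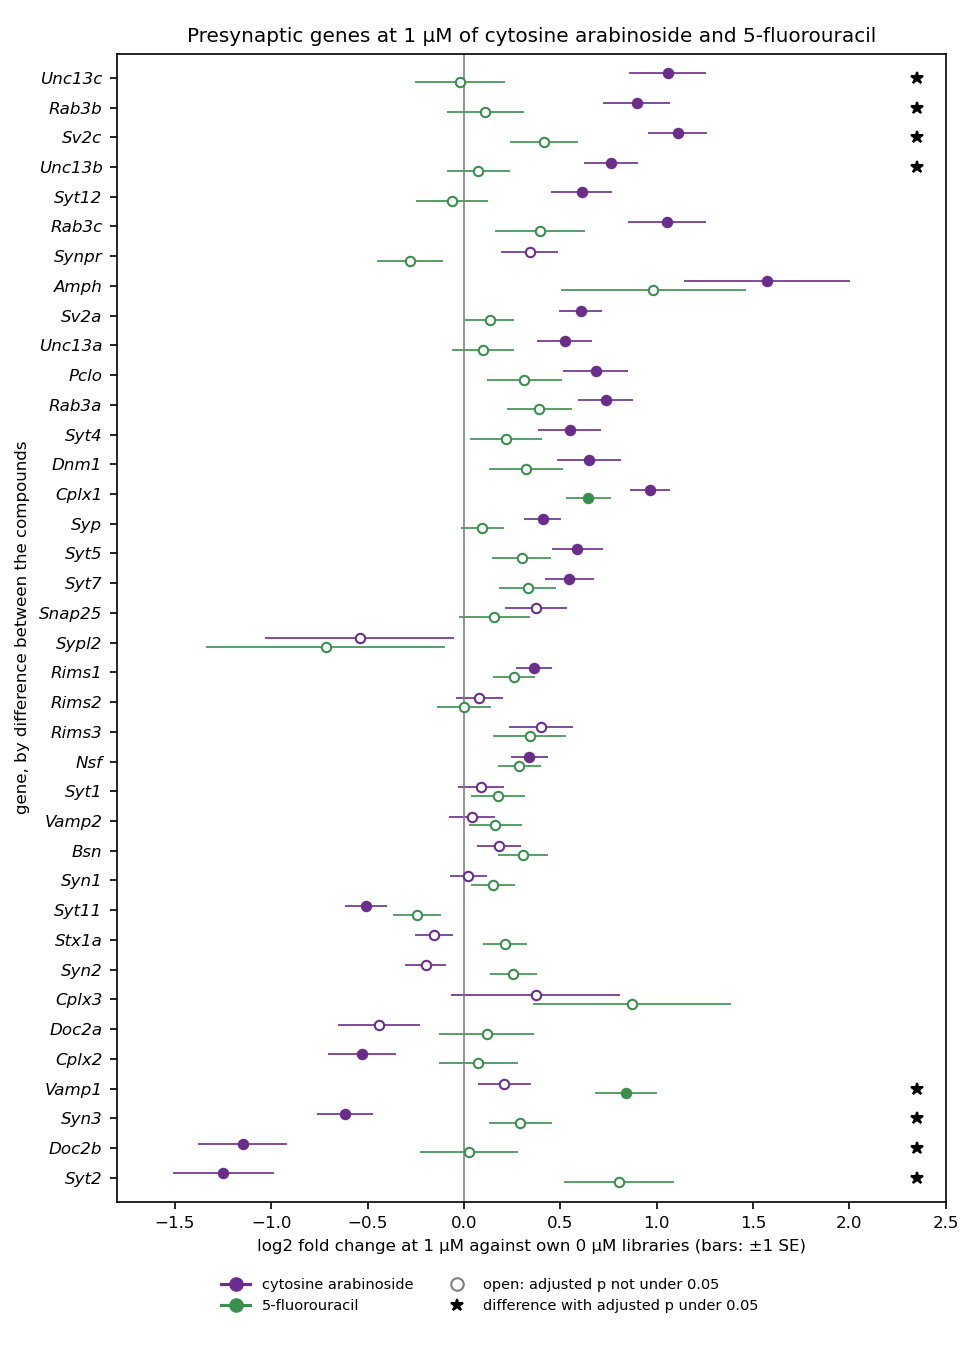
Log2 fold change at 1 µM of cytosine arabinoside and of 5-fluorouracil against their own 0 µM libraries for each of the 38 genes, with bars of 1 SE; filled points had an adjusted p under 0.05, and stars mark the 8 genes whose difference between the compounds had one. Vamp1, Syn3, Doc2b and Syt2 lay at the bottom, with larger values under 5-fluorouracil.

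The ratio of each fast-release isoform to its counterpart was computed in every library as a log2 ratio, which is unaffected by library scaling. With 3 libraries against 3 an exact permutation test cannot give a p below 0.10, and no ratio of the 57 tests had an adjusted p under 0.99. Cplx1 over Cplx2 was −0.06 ± 0.57 at 1 µM of cytosine arabinoside and −1.60 ± 0.24 at 0 µM (SD, n = 3 each), a difference of 1.54 (exact permutation p = 0.10, two-sided) with no overlap. The within-project differences were 1.49 in GRC327 and 1.62 in GRC321. At 0.1 and 0.3 µM the ratio was −1.04 ± 0.27 and −0.40 ± 0.49, differences of 0.55 and 1.20 from 0 µM. At 1 µM of 5-fluorouracil it was −0.51 ± 0.28, against −1.25 ± 0.17 at 0 µM (SD, n = 3 and 2), a difference of 0.74 without overlap, and of 0.60 within GRC327, the only project with 0 µM libraries of this compound. Syt2 over Syt1 was −9.58 ± 0.50 at 1 µM of cytosine arabinoside and −8.24 ± 0.46 at 0 µM, a difference of −1.34, without overlap, and −1.27 within GRC327. Under 5-fluorouracil at 1 µM that ratio differed by 0.38 from its 0 µM value. Vamp1 over Vamp2 differed by 0.17 at 1 µM of cytosine arabinoside and by 0.49 at 1 µM of 5-fluorouracil, where the groups did not overlap. The 5-fluorouracil difference was 0.67 in GRC327 and 0.21 without replicate 2 at 1 µM. At the highest concentrations of haloperidol, domoic acid, deltamethrin and cypermethrin the differences from 0 µM were −0.22, 0.06, 0.29 and −0.09 for Cplx1 over Cplx2, −0.30, −0.21, 0.36 and 0.36 for Vamp1 over Vamp2, and −0.59, 0.23, −0.64 and −0.77 for Syt2 over Syt1. In each of these the groups overlapped, and within GRC327 the sign turned for Cplx1 over Cplx2 under cypermethrin (0.14) and for Syt2 over Syt1 under domoic acid (−0.03). At 0 µM the Vamp1 over Vamp2 ratio was −6.59 to −6.20 in GRC321 and −6.20 to −5.89 in GRC327.

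**Figure D5:**
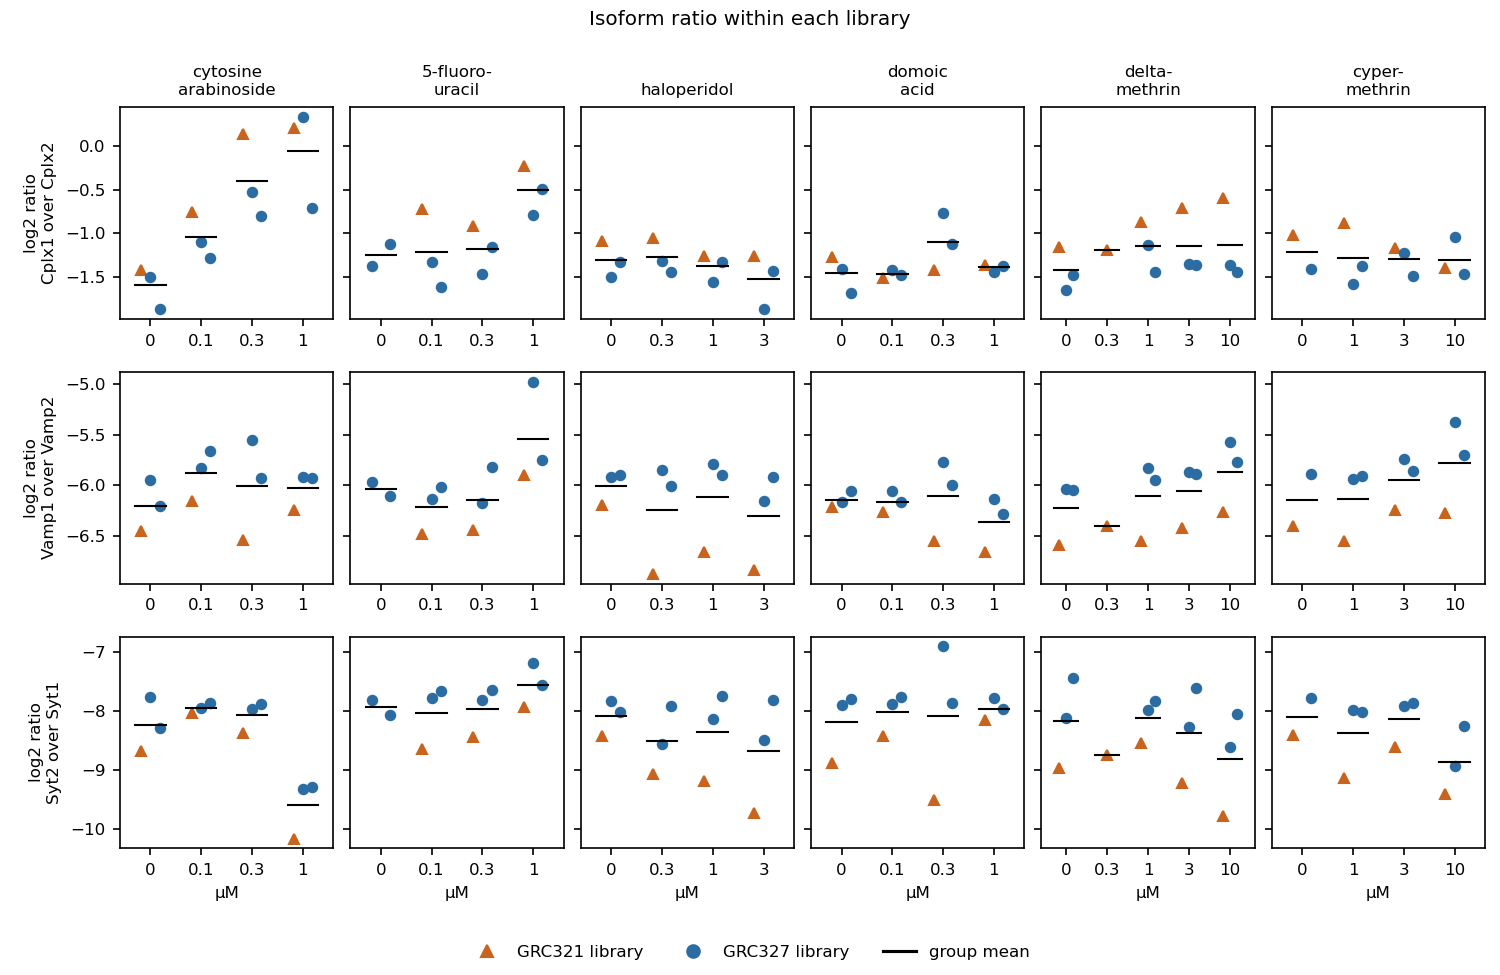
Log2 ratio of each fast-release isoform to its counterpart in each library, by compound and concentration in µM; symbols mark the sequencing project and lines mark group means. Cplx1 over Cplx2 stood higher at 1 µM of cytosine arabinoside (−0.06 on average) than at 0 µM (−1.60), and Syt2 over Syt1 stood lower (−9.58 and −8.24).

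Haloperidol, an antagonist of dopamine D2 receptors, gave 0 of 38 genes called by edgeR and 0 by DESeq2 at 0.3, 1 and 3 µM (0.0%, 0.0% and 0.0261% of all tested genes by edgeR), with 2, 3 and 5 genes at an unadjusted p under 0.05. At 3 µM Cplx1 was at 252, 264 and 289 CPM, against 345, 334 and 332 CPM at 0 µM, without overlap, a log2 fold change of −0.33 ± 0.10 (SE; edgeR adjusted p = 0.52). Vamp1 was at 13.9, 15.1 and 18.8 CPM at 3 µM, against 24.7, 19.7 and 19.3 CPM at 0 µM, with −0.41 ± 0.14 (SE; edgeR adjusted p = 0.66). Synpr had the smallest p of the 38 genes there, with 146 ± 42.3 CPM at 3 µM and 210.2 ± 13.02 CPM at 0 µM (SD, n = 3 each; edgeR adjusted p = 0.35). Syt2 (−0.62), Vamp2 (−0.11), Cplx2 (−0.11) and Syt1 (−0.11) were not called. The GABAergic marker sum was 460.1 to 585 CPM at 3 µM and 684 to 946 CPM at 0 µM, without overlap, with 1 of 12 markers called, lower. The astrocyte marker sum was 3912 to 4495 CPM at 3 µM and 3123 to 3616 CPM at 0 µM, higher without overlap. That sum was also above the 0 µM range at 0.3 µM (4112 to 4881 CPM) and at 1 µM (4003 to 4310 CPM). The part of these marker lists in the presynaptic values under haloperidol was not tested.

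Domoic acid, an agonist of kainate and AMPA receptors, gave 0 genes called by edgeR and 0 by DESeq2 at 0.1 and 1 µM (0.0% of all tested genes at each by edgeR), with 0 and 1 at an unadjusted p under 0.05. At 0.3 µM 2 of 38 were called, both higher (1.51% of all tested genes called, 1.21% higher). Dnm1 was at 204, 484 and 246 CPM at 0.3 µM, against 190, 193 and 172 CPM at 0 µM, with a log2 fold change of 0.74 ± 0.17 (SE; edgeR adjusted p = 0.026). Syt12 was at 15.5, 21.99 and 18.8 CPM, against 11.4, 12.9 and 12.8 CPM at 0 µM, with 0.60 ± 0.16 (SE) and an edgeR adjusted p just under 0.05. Replicate 2 at 0.3 µM stood apart from the other libraries of the group, with Vamp2 at 632 CPM and Cplx2 at 411 CPM, and without it edgeR called 0 of the 38 genes, as it did without 0 µM replicate 2 or 3. When replicate 1 or 3 at 0.3 µM was left out it called 11 and 6, and it called 1 when any one of 6 other domoic acid libraries was left out. At 1 µM Vamp1 (−0.11), Cplx1 (−0.04) and Syt2 (0.07) and their counterparts Vamp2 (0.11), Cplx2 (−0.10) and Syt1 (−0.15) had an edgeR adjusted p of 1.

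The pyrethroids deltamethrin and cypermethrin slow the closing of voltage-gated sodium channels. Both carry an alpha-cyano group, and they differ in the halogens on the vinyl group, bromine in deltamethrin and chlorine in cypermethrin. Each of their 7 comparisons gave 0 called genes of the 38 by edgeR and 0 by DESeq2 (0.0% of all tested genes in each by edgeR). Deltamethrin 0.3 µM held 1 library, assumed to vary like the other groups. At an unadjusted p under 0.05 there were 0, 2, 0 and 4 of the 38 genes at deltamethrin 0.3, 1, 3 and 10 µM, and 3, 2 and 4 at cypermethrin 1, 3 and 10 µM. At 10 µM of deltamethrin Vamp1 was at 21.9, 23.9 and 21.6 CPM, against 17, 19.3 and 16.8 CPM at 0 µM, with 0.34 (edgeR adjusted p = 0.96) and no overlap. At 10 µM of cypermethrin it was at 25.3, 26.2 and 24.5 CPM, against 20.1 and 21.1 CPM at 0 µM, with 0.31 (edgeR adjusted p = 0.70). Syt2 was −0.59 at 10 µM of deltamethrin and −0.70 at 10 µM of cypermethrin, while Cplx1 was −0.02 and 0.27. Matched concentrations were compared across the pair at 1, 3 and 10 µM, 3 of the 6 difference comparisons made. The difference was called for 0 of the 38 genes by edgeR (0.0% of all tested genes at each concentration) and for 0 by DESeq2, with 2, 2 and 1 genes at an unadjusted p under 0.05. The differences at 10 µM were −0.29 for Cplx1 (95% interval −0.60 to 0.02), 0.03 for Vamp1 (−0.40 to 0.45) and 0.11 for Syt2 (−0.69 to 0.90). A p that misses the threshold does not show that the compounds act alike.

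A further 62 presynaptic genes, chosen with these results known, were read beside the 38, and 61 were tested. Under cytosine arabinoside 27 were higher and 8 lower at 1 µM (57.4%, against 36.0% of all tested genes), 13 higher and 3 lower at 0.3 µM, and 9 higher and 1 lower at 0.1 µM. Of all tested genes 17.6% were called at 0.3 µM and 9.13% at 0.1 µM. The median log2 fold change at 1 µM was 0.33. Cadps2, a priming factor of dense-core vesicles, had 1.82 ± 0.16, and Slc32a1, the vesicular transporter of GABA and glycine, had 1.64 (edgeR adjusted p = 6.4e-12) with 161 ± 19.8 CPM at 1 µM and 51.7 ± 10.9 CPM at 0 µM (SD, n = 3 each). Slc17a6, the vesicular glutamate transporter VGLUT2, had 1.00, Cadps 0.79 and Lin7a 1.76, and Vamp3, the widely expressed cellubrevin, had −1.49. Under 5-fluorouracil at 1 µM 1 of 61 was called (1.64%, against 4.03% of all tested genes), Slc32a1 with 0.85 (edgeR adjusted p = 0.0026). Vamp3 had −0.52, Apba2 0.35, Rph3a 0.50, Apba1 0.31 and Cadps 0.32 there, with edgeR adjusted p values of 0.073 to 0.15. At the highest concentration of the other 4 compounds edgeR called 0 of the 61 (DESeq2 calls were not counted for this list), with 4, 0, 5 and 8 at an unadjusted p under 0.05 for haloperidol, domoic acid, deltamethrin and cypermethrin. At 0.3 µM of domoic acid 1 of 61 was called (1.64%, near the 1.51% of all tested genes). It was Napa with 0.89 (edgeR adjusted p = 0.02), named after its value was seen. The smallest p at the highest concentrations belonged to Slc32a1 under haloperidol (−0.72, edgeR adjusted p = 0.11), to Rab27b under domoic acid (0.47, 1), to Rimbp2 under deltamethrin (0.49, 0.96) and to Rph3a under cypermethrin (0.55, 0.58).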

How the data were processed

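The authors deposited expected counts, estimates of the reads of each gene in each library that were not scaled between libraries; 20.6% were not whole numbers (tolerance 1e-06). Partek and STAR are named in the submitters' processing notes; their roles and versions, the genome build and the strandedness were not given in the sources used here. Expected counts were rounded to whole numbers. Groups are the compound and concentration of the labels. edgeR 4.0.16 in R 4.3.3 fitted all 71 libraries in 25 groups after filterByExpr (minimum count 10), with TMM scaling, 31 design columns and 40 residual degrees of freedom; the biological coefficient of variation was 15.6%. Tests were 2-sided quasi-likelihood tests, adjusted by Benjamini-Hochberg over all tested genes in each comparison (threshold 0.05). The fit was tested on simulated data. Log2 isoform ratios were compared by exact permutation.

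The genes, the further lists and the tests were chosen with earlier results of these data known. All 39 genes were accounted for; full statistics were given for up to 10 called genes with the smallest p, values per library for the 4 largest changes in each direction, and the 6 isoform genes were named under every compound. Of the further presynaptic list the 6 genes with the smallest p at each highest concentration were eligible to be named, and of each marker list the 3 with the highest level; some of these are not reported here. The alternatives were DESeq2 1.42.0, its size factors, scaling to pan-neuronal counts, no filter, no project term, GRC327 alone, all 16 libraries at 0 µM as reference, and leaving out each library. Replicates of a group all differed by more than sampling noise. Counts limit precision for low genes: Syt2 had 26 to 466 counts per library and Amph had 5 to 389.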

Additional observations from a re-analysis of the deposited data

Results flagged for a closer look

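The effects of cytosine arabinoside and of 5-fluorouracil at the same concentration differed by the test of the difference itself for 3 genes at 0.1 µM, 2 at 0.3 µM and 8 at 1 µM. Over all tested genes 3.84%, 5.89% and 12.9% differed, so that 2 of 38 (5.26%) at 0.3 µM is near the share of all genes. At 0.1 µM the differences in log2 fold change, cytosine arabinoside minus 5-fluorouracil, were 0.86 for Cplx1, 0.70 for Syn2 and 0.62 for Sv2a. At 0.3 µM they were 0.90 for Cplx1 and 0.59 for Sv2a. At 1 µM they were −2.05 for Syt2, −1.18 for Doc2b, −0.91 for Syn3 and −0.63 for Vamp1, and 1.08 for Unc13c, 0.78 for Rab3b, 0.69 for Sv2c and 0.69 for Unc13b. The cause of these differences was not tested.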

How the results depend on the processing

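No paired analysis was possible because the labels give no replicate numbers, and those used here only name libraries in accession order. Counts of called genes moved by over 1.5 times in the following settings, and the cause was not tested. Domoic acid 0.3 µM (2 called) gave 4 by DESeq2, 1 with DESeq2 size factors, 1 without the filter, 0 without the project term, 7 in GRC327 alone and 6 against all libraries at 0 µM. Cytosine arabinoside 0.1 µM (8 called) gave 1 when scaled to pan-neuronal counts, 5 without the filter, 1 without the project term, 3 in GRC327 alone and 18 against all libraries at 0 µM. Cytosine arabinoside 0.3 µM (15 called, all higher) gave 4 when scaled to pan-neuronal counts, 2 higher and 2 lower, and 3 without the project term. Cytosine arabinoside 1 µM (24 called) gave 14 without the project term, and 5-fluorouracil 1 µM (2 called) gave 17 against all libraries at 0 µM. The differences between these compounds (3, 2 and 8 called at 0.1, 0.3 and 1 µM) gave 1, 1 and 1 without the project term, and at 1 µM 18 when scaled to pan-neuronal counts (16 higher and 2 lower, against 4 and 4) and 5 in GRC327 alone. Scaling to pan-neuronal counts moved the median of all tested genes by −0.19, −0.16 and 0.17 on the log2 scale at 0.1, 0.3 and 1 µM of cytosine arabinoside and by −0.23 at 1 µM of 5-fluorouracil. No called gene changed sign under these alternatives, but some uncalled isoform ratios did within GRC327, among them Syt2 over Syt1 at domoic acid 1 µM (−0.03, against 0.23), Cplx1 over Cplx2 at cypermethrin 10 µM (0.14, against −0.09) and Vamp1 over Vamp2 at haloperidol 1 µM (0.06, against −0.11).

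Leaving out each library in turn gave 0 to 11 calls at domoic acid 0.3 µM, 0 to 1 at cypermethrin 3 µM and 0 to 1 at 10 µM (1 without 0 µM replicate 2), 2 to 8 at cytosine arabinoside 0.1 µM (fewest without 0.1 µM replicate 1) and 5 to 15 at 0.3 µM (fewest without 0.3 µM replicate 3). For the differences it gave 1 to 2 at 0.3 µM and 4 to 13 at 1 µM, fewest without either 0 µM library of 5-fluorouracil and most without replicate 3 at 1 µM of cytosine arabinoside. Cplx1 at all 3 concentrations of cytosine arabinoside and Sv2a at 0.3 and 1 µM were called in every one of these settings. So were Syt2, Sv2c, Rab3a, Rab3b, Unc13b, Unc13c, Doc2b, Dnm1, Rims1 and Syt5 at 1 µM of cytosine arabinoside. The same held for Vamp1 and Cplx1 at 1 µM of 5-fluorouracil. It also held for the differences of Cplx1 at 0.1 and 0.3 µM and of Syt2 at 1 µM.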
